A study of Xenopus tropicalis with 30 samples.

Results

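The poly(A) sites of adult male and female western clawed frogs (*Xenopus tropicalis*) were compared over every site that was deposited. The 12 libraries whose labels name WTTS-seq, 6 females and 6 males, were taken out of 30 libraries in the study, and all 98277 sites of their table were used. Each library came from the whole body of 1 adult. The sources used here give no strain, no age beyond adulthood and no treatment. The study also profiled transcription start sites in the same animals. WTTS-seq counts the 3′ ends of transcripts. Per the labels' protocols, RNA was extracted with Trizol, fragmented and enriched for poly(A) tails before cDNA synthesis, size selection and PCR.

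A poly(A) site is where a new transcript is cleaved and receives its tail. Many vertebrate genes have several such sites, and the choice among them sets how much 3′ untranslated sequence, with its binding sites for regulatory RNAs and proteins, the mRNA keeps. A whole adult frog includes its gonad: the ovary holds oocytes that store large amounts of maternal mRNA, and the testis makes many transcripts found in few other tissues. In mammals, male germ cells are known for using poly(A) sites close to the coding sequence.

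Totals ran from 2304469 counts in male 6 to 6624765 in female 6. The sites lay on 1366 sequences, with a median width of 53 bases. Levels are given as counts per 1000000 (CPM) on the TMM scale, which sets libraries level on most sites rather than on their totals. The TMM factors were 1.38 to 1.72 in females and 0.559 to 0.771 in males, so the CPM of a male library add up to more than 1000000. No gene is named in the table and no annotation of its genome build was used, so each site is given by chromosome, strand and position, counted from 1. Unplaced sites are given by strand and position, without the name of their scaffold. The sources used here do not name the build. No single tissue or cell-type marker could be read for the same reason, and in whole bodies fewer cells of a type and less RNA per cell cannot be told apart.

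2 libraries stood apart. Female 6, the deepest library, had the fewest sites, and it had the lowest mean rank correlation with the others of its sex, at a Spearman rho of 0.745 against 0.786 to 0.837 in the other females. Male 3 had the lowest such value among males, at 0.692 against 0.730 to 0.768. The measures per animal and the numbers of called sites and runs are given with and without them, an alternative chosen after seeing the data. Numbers of sites by how many animals had a count, rank bands, top lists, correlations and leading sites of runs are given with all 12 libraries only.

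The first question was how widely the counts of each sex were spread over the sites. About as many sites were detected in a male as in a female. Females had 1 or more counts at 34252 sites (female 6) to 47825 sites (female 1), and males at 36029 sites (male 3) to 45213 sites (male 4). The ranges overlapped over most of their length. When every library was thinned by calculation to 2304469 counts, the expected number was 39571 ± 6177 sites in females (SD, n = 6; 28617 to 45748) and 37659 ± 3115 in males (n = 6; 32628 to 40749). This difference of -1913 sites was within the spread between animals (exact two-sided permutation p = 0.519). It was -4103 sites without female 6 (exact permutation p = 0.0714), -677.2 without female 4 (exact permutation p = 0.812) and -906.4 without male 3 (exact permutation p = 0.786). Without female 1 it was -1151 sites and without female 3 -1208. Without both female 6 and male 3 it was -3097 sites (exact permutation p = 0.127).

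At shallow depth the sexes were apart. Thinned to 23044 counts, females reached 8056 ± 199.8 sites (7695 to 8227) and males 5424 ± 581 sites (4724 to 6419), with every female above every male. At 230446 counts the means were 22355 and 19442 sites, and the ranges, 18058 to 24395 and 18129 to 22479, overlapped. As a proportion of the male number, the female lead therefore shrank with depth, as the plot of sites against counts shows. No test was run at these depths.

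Detection was shared unevenly among animals. A core of 7751 sites (7.89%) had a count in all 12 animals and held 66.9% of the female and 82.2% of the male counts. At the other end, 20151 sites (20.5%) were seen in 1 animal, and 43232 (44.0%) in no more than 3. These rare sites took 1.89% of the female and 1.15% of the male counts. Counts in both sexes were found at 55534 sites (56.5%). A further 24951 sites (25.4%) had counts in females alone, of which 11750 were seen in 1 female, and 17792 (18.1%) had counts in males alone, of which 8401 were seen in 1 male.

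Few sites were both general in a sex and without a count in the other. A count in all 6 females and none in males was found at 1255 sites (1.28% of all sites), which held 3.06% of the female counts. The converse was found at 530 sites (0.539%), which held 0.310% of the male counts. A count of 0 allows a level of up to 3 counts of a library's total, so it does not show that a transcript end is absent. On the TMM scale, 10 CPM stood for 34.8 to 114 counts in a female library and for 15.3 to 38.8 in a male one. A count of 0 in all 6 males therefore sets a looser limit than a count of 0 in all 6 females.

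**Figure D1:**
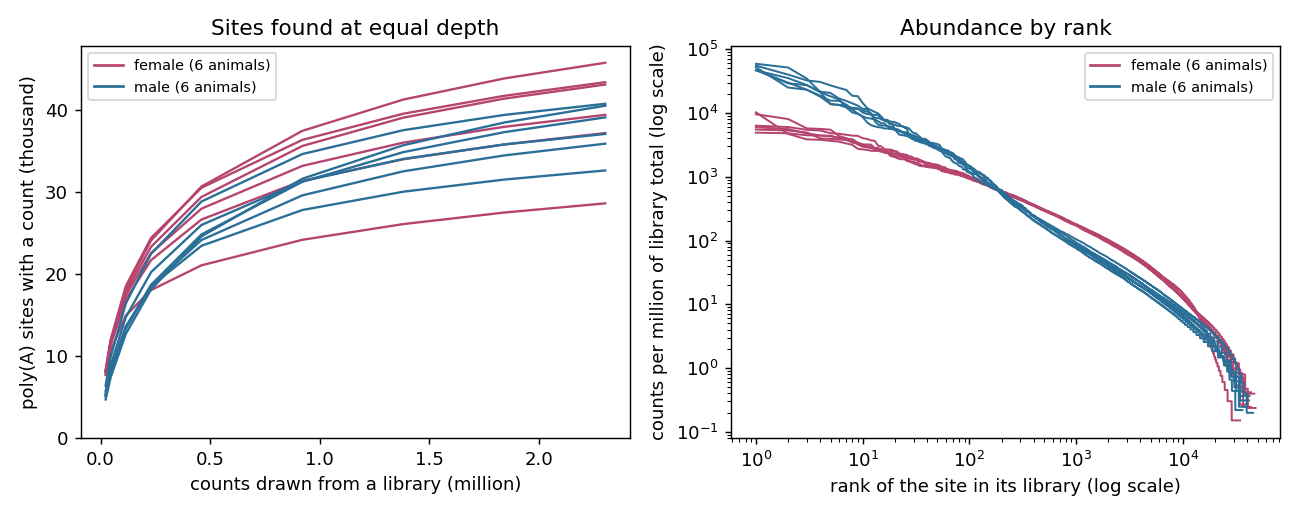
Left, expected number of poly(A) sites with 1 or more counts against the counts drawn from a library, both in the multiples given on the axes, 1 line per animal; right, counts per 1000000 of the library total against the rank of the site in that library, both on log scales. The lines of the sexes mix on the left at full depth, where females end between 28617 and 45748 sites and males between 32628 and 40749, while on the right all males start above all females and fall below them at ranks of 101 to 1000.

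The second question was how the counts were distributed over abundance ranks. Male counts lay on few sites and female counts on many. The effective number of sites, which is the number of equally abundant sites that would give the same Shannon entropy, was 6225 ± 333 in females (n = 6; 5658 to 6602) and 1229 ± 383 in males (n = 6; 778 in male 2 to 1894 in male 4). The lowest female was far above the highest male, and the exact two-sided permutation p was 0.00216, the smallest 6 against 6 can give (adjusted over 7 measures per animal, p = 0.00303). Without female 6 and male 3 the difference was -5072 sites against -4996.

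The excess in males covered the first 100 ranks. The top-ranked site took 5.12% ± 0.518 of all counts in a male and 0.708% ± 0.224 in a female. Ranks 2 to 10 held 17.1% ± 3.22 in males and 3.79% ± 0.469 in females, and ranks 11 to 100 held 29.2% ± 2.15 and 13.6% ± 0.542. Below these ranks the order turned. Ranks 101 to 1000 held 23.6% ± 1.48 of male and 31.0% ± 0.379 of female counts, and ranks 1001 to 10000 held 19.0% ± 2.67 and 41.9% ± 1.73. The groups were apart in each of these 5 bands (n = 6 each, exact permutation p adjusted over 6 bands = 0.0026). Sites beyond rank 10000 held 6.06% ± 1.26 of male and 9.10% ± 1.3 of female counts (adjusted exact permutation p = 0.00433).

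Top lists were alike within a sex and little alike between sexes. Of the 10 highest sites of a library, 2 males shared 7.73 on average over 15 pairs, 2 females shared 5.67 over 15 pairs, and a female and a male shared 2.92 over 36 pairs. For the 1000 highest the means were 717, 756 and 339 sites. No site was among the 10 highest of all 12 animals, and 181 sites were among the 1000 highest of all 12. Over the 16429 sites that entered the test below, Spearman's rho between libraries had a median of 0.812 for female pairs, 0.725 for male pairs and 0.141 for pairs of a female and a male. These correlations are descriptions across sites. The first principal component of the same sites held 63.9% of the variance and separated the sexes. A site could enter this set through 1 sex alone, which favours sites that differ. The rho between sexes and the share of the first component therefore lean to a sex difference, by an amount that was not tested.

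The site highest in males was on the plus strand of chromosome 7 at position 105374171. Males held 48253, 66885 and 83495 CPM there (lowest, median and highest), and females 1215, 1770 and 3906. The lowest male was far above the highest female. The site had rank 1 by mean level in males and rank 8 in females, with a log2 fold change, male over female, of 4.99 ± 0.34 (SE; edgeR quasi-likelihood F test, Benjamini-Hochberg adjusted p = 7.54e-08).

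A site on an unplaced scaffold, position 63932 of its plus strand, had rank 2 in males. It held 17948, 29488 and 98617 CPM in males and 54.2, 453 and 687 in females. Males 1 and 2 were far above the other males there, and the groups did not overlap (log2 fold change 6.82 ± 0.71, edgeR adjusted p = 2.94e-06). Another unplaced site, at position 3580 of a plus strand, had the same shape, with 14503, 22114 and 57720 CPM in males against 62.2, 284 and 346 in females (7.0 ± 0.57, edgeR adjusted p = 3.55e-07). Males 1 and 2 were again the highest, and female 6 was the lowest female at both sites.

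On chromosome 9, the minus-strand site at 36978837 held 22151, 32843 and 80071 CPM in males, where male 3 was the highest, and 740, 2120 and 2535 in females. All males were above all females (4.50 ± 0.43, edgeR adjusted p = 1.25e-06). Male 2 alone carried much of the level of the unplaced minus-strand site at 5026, with 71438 CPM against 7267 to 16311 in the other males. Females held 36.4, 300 and 515 CPM there (6.29 ± 0.78, edgeR adjusted p = 1.58e-05; 5.31 without male 2). This site lies on the same scaffold as the plus-strand site at 3580. The remaining sites of the male top 10 were the mitochondrial site described next, 2 further unplaced sites, 1 on chromosome 8 and 1 on chromosome 2, all higher in males with log2 fold changes of 2.96 to 4.72.

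A mitochondrial cluster had rank 1 in females and rank 4 in males. Its counts were assigned to position 1237 of the plus strand, but the cluster runs from base 33 to base 8845, a width of 8813 bases that is the largest in the table, so it may hold several transcript ends. Females held 1915, 3073 and 6326 CPM and males 24131, 34977 and 42043. Although it led the female list, every male was above every female (3.33 ± 0.30, edgeR adjusted p = 9.27e-07).

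The female top 10 was a mixture. Position 83542938 of chromosome 4, plus strand, had rank 2 in females and rank 4721 in males. It held 2339, 2858 and 4537 CPM in females against 5.67, 22.0 and 52.1 in males (-6.89 ± 0.60, edgeR adjusted p = 5.98e-07). Position 57452660 of chromosome 1, plus strand, had rank 4 in females, with 2259, 2551 and 4140 CPM against 0, 17.2 and 45.2 (-7.23 ± 0.81, edgeR adjusted p = 6.55e-06). At both, the lowest female was far above the highest male. In 4 other sites of this list the female excess was smaller, with log2 fold changes of -1.08 to -2.87, and 3 sites, the mitochondrial cluster included, were higher in males.

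A single site of the female top 10 did not pass the test. The minus-strand site of chromosome 1 at 81001003 held 1542, 1835 and 3169 CPM in females and 2098, 3198 and 4270 in males, with overlapping groups (0.59 ± 0.27, edgeR adjusted p = 0.0754). On library totals alone its fold change had the opposite sign, at -0.62.

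**Figure D2:**
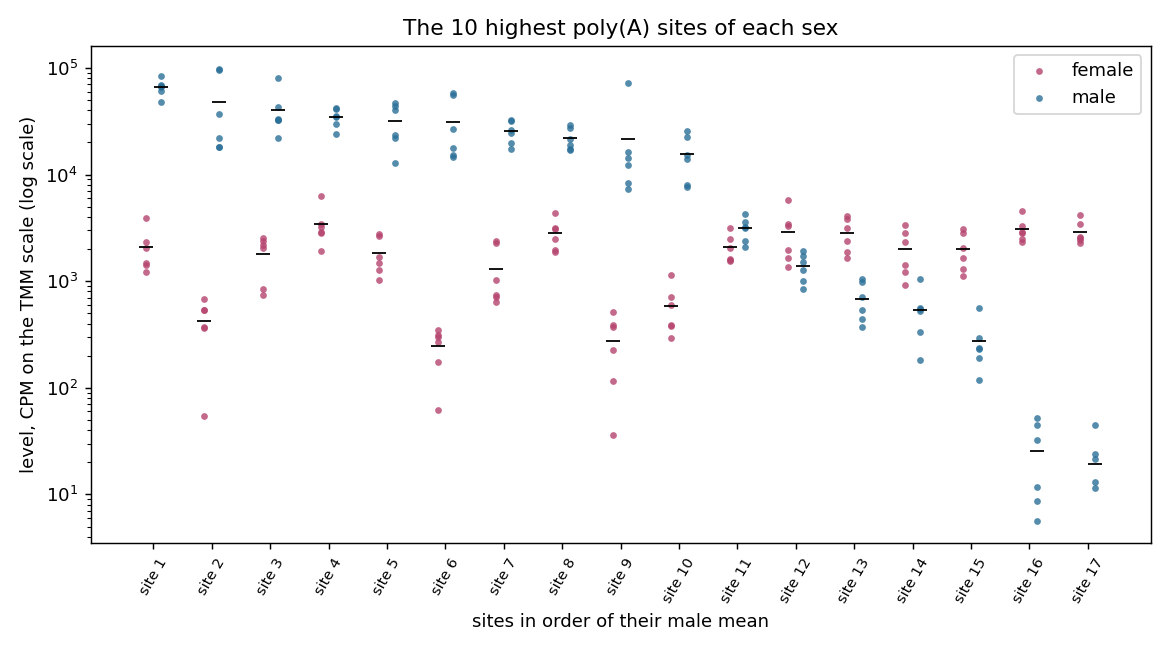
Level (CPM on the TMM scale, log axis) of the 17 sites that make up the 10 highest of each sex, ordered by male mean, with 1 point per animal and a bar at each mean. The first 10 sites, those highest in males, show no overlap of the sexes; the male at 0 CPM at the chromosome 1 site 57452660 (the last in the plot) is not drawn on the log axis.

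The third question was how far animals of 1 sex differed among themselves. Males were more variable than females by a modest amount. For each animal the absolute difference of its log2(CPM + 1) from the mean of the other 5 of its sex was taken at 4944 sites that averaged at least 10 CPM in each sex. The median over sites was 0.457 ± 0.0881 in females (n = 6; 0.365 to 0.574) and 0.611 ± 0.0881 in males (n = 6; 0.505 to 0.736). The groups overlapped, and the difference of 0.154 had an exact two-sided permutation p of 0.0195 (adjusted over 7 measures, p = 0.0227). Each value uses the other animals of its sex, so values of a sex depend on each other. The permutation kept them fixed, and all p-values of this measure are therefore approximate. Without female 6 and male 3 it was 0.158 (exact permutation p = 0.0238), and without female 2 the exact permutation p was 0.0541. With a minimum of 50 CPM (1066 sites) the difference was 0.0906 (exact permutation p = 0.0931).

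On the TMM scale, depth also differed between the sexes. Through the TMM factors, 10 CPM stood for 15.3 to 38.8 counts in a male library and for 34.8 to 114 counts in a female library. The part of counting error in the difference was not tested at the level of single animals. The biological coefficient of variation, in which edgeR separates counting error, was 0.906 in males and 0.845 in females. It was estimated over all 16429 tested sites, many of them low in 1 sex, and not over the 4944 sites of the spread measure.

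Spread between animals fell with level in both sexes. At sites of 10 to 30 CPM in the sex in question, the median SD of log2(CPM + 1) was 0.754 in females and 1.12 in males. At 100 to 300 CPM it was 0.435 and 0.626. Above 1000 CPM it was 0.393 over 42 sites in females and 0.506 over 186 sites in males. The male value was the higher in all 5 level classes. Of the 4944 sites, 66.7% had the larger SD in males.

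Single animals stood apart from the rest of their sex at a part of the sites. Dixon's criterion was used, which flags about 1 in 20 groups by chance if values are normally distributed. It flagged 1125 of the 8905 sites (12.6%) that averaged at least 10 CPM in females. In males it flagged 839 of 10068 such sites (8.33%). Female 6 was the animal at 642 of the female sites, and it was the low one at 582 of them. Male 3 was the animal at 359 of the male sites and low at 326. Female 6 had no count at all at 211 of its low sites although it was sequenced most deeply, and male 3 had none at 174 of its own. Both lists were short: of the 4944 sites that averaged at least 10 CPM in each sex, 5.58% were low in female 6 and 3.96% in male 3. Among these 4944 sites, 276 were on the female 6 list and 196 on the male 3 list. The lists shared 8 sites. That is 2.90% of those 276, against 3.96% of the 4944 that were low in male 3. Of the full lists, which also hold sites below 10 CPM in the other sex, it is 1.37% (female 6) and 2.45% (male 3). The full-list shares are not comparable with 5.58% and 3.96%. At the sites low in female 6, male 3 lay at a median of -0.30 from the other males on the log2 scale, against -0.13 over the 4944 sites. At the sites low in male 3, female 6 lay at -0.32 from the other females, against -0.13.

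**Figure D3:**
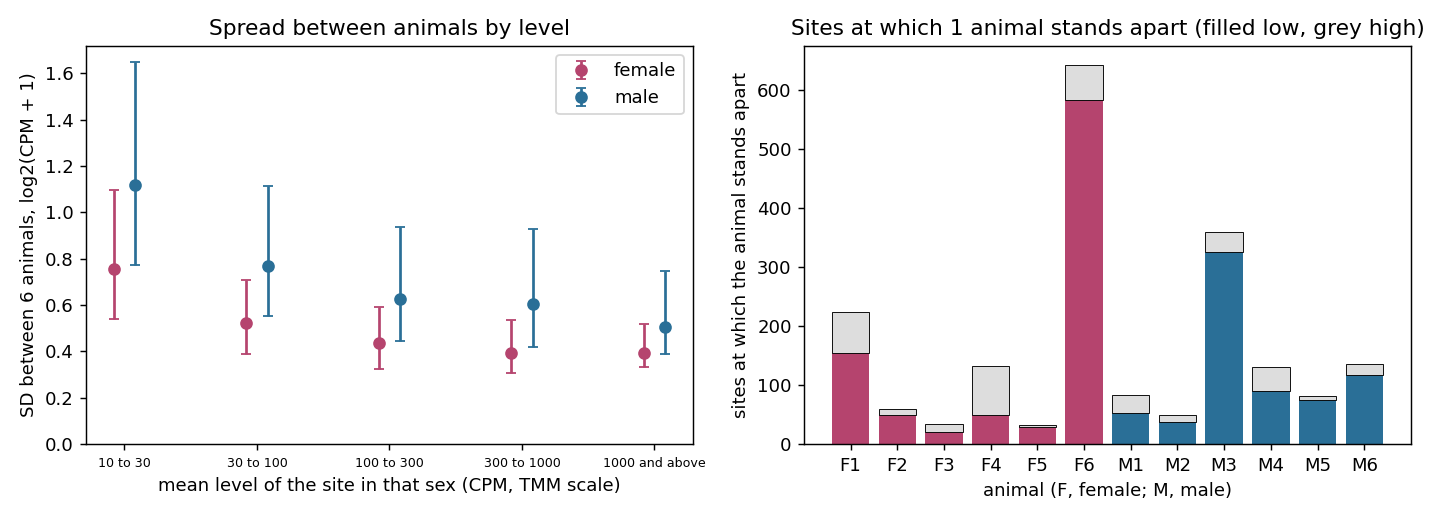
Left, median over sites (points) and quartiles (bars) of the SD of log2(CPM + 1) between the 6 animals of a sex, by mean level of the site in that sex; right, number of sites at which each animal stood apart from the other 5 of its sex, as the low one (filled) or the high one (grey). Male medians are the higher in every class, from 1.12 against 0.754 to 0.506 against 0.393, and female 6 and male 3 have the tallest bars of their sex.

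The most uneven sites were set by 1 or a few animals. The plus-strand sites 9088697 and 9057459 of chromosome 7 behaved alike: at 9088697 male 3 held 3572 CPM and the other males 0 to 59.95, and at 9057459 male 3 held 4688 CPM and the other males 0 to 50.3. Females had at most 12.9 and 10.9 CPM there, and in both cases the highest was female 4. Both sites have many unlisted counts, 193033 and 124142, where unlisted means the deposited total of a site minus the sum of the 12 libraries. At position 12435738 of chromosome 3, plus strand, male 1 held 5230 CPM while male 2 held 0, and the other 4 males had between 0.258 and 399.7. The unplaced plus-strand site at 18351 held 704 CPM in male 1, 183 in male 4 and at most 0.645 in the other males.

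Unevenness at the minus-strand site 54596729 of chromosome 8 split the males, with 534, 350 and 697 CPM in males 3, 5 and 6 and 0 in the other 3. Among females, female 4 was the only high animal at 3 of the 5 most uneven sites. On chromosome 7, plus strand, at 8097574 it held 898 CPM against 0.258 to 14.9 in the others, at 8221 of the minus strand 379 against 0 to 1.55, and at 9527325 of chromosome 9, plus strand, 363 against 0 to 0.514. All males had 0 counts at the last. The other uneven female sites had no count or almost none in 2 females each: 22993171 of chromosome 10, plus strand, with 0 CPM in females 2 and 4 and 71.0 to 157 in the rest, and 1261 of an unplaced plus strand, with 1.37 and 0.175 in females 2 and 6 and 122 to 202 in the rest. The call at 8097574 (-4.16 ± 1.68, edgeR adjusted p = 0.0497) rests on female 4, since without it the fold change was 1.04.

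At the 3 sites with the smallest spread over all animals, levels of the sexes lay close together. The plus-strand site at 17393227 of chromosome 7 held 74.7, 98.2 and 133 CPM in females and 93.2, 122 and 128 in males (0.23 ± 0.26, edgeR adjusted p = 0.49). At 13167396 of chromosome 3, plus strand, females held 445, 683 and 821 CPM and males 491, 539 and 693 (-0.20 ± 0.24, edgeR adjusted p = 0.509). The minus-strand site 108059170 of chromosome 5 held 274, 380 and 453 CPM in females against 297, 409 and 523 in males (0.09 ± 0.25, edgeR adjusted p = 0.779). The groups overlapped at all 3, which were chosen for small spread. Scaled to library totals alone, all 3 passed the test as higher in females, with -0.99, -1.44 and -1.14 (edgeR adjusted p = 0.00601, 0.000112 and 0.00238), so the first and the third turned sign. Their steadiness holds on the TMM scale.

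The fourth question was which sites differed by sex. After a filter on low counts, 16429 of the 98277 sites were tested. A site could pass the filter through 1 sex alone, which favours sites that differ. Shares over tested sites therefore say nothing of the sites left out. Of these, 8340 passed the edgeR test at an adjusted p of 0.05 (50.8%), 4246 higher in males (25.8%) and 4094 higher in females (24.9%). Without female 6 and male 3, 9112 of 17100 sites passed, 4479 higher in males and 4633 higher in females. The even split depends on scaling: on library totals alone males were higher at 2643 sites and females at 7426, and the median log2 fold change of all tested sites moved by -1.23. All directions here are relative to the TMM scale.

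The counts behind these classes were far from even. Sites higher in males held 78.9% ± 3.28 of the male and 18.9% ± 1.64 of the female counts. Sites higher in females held 46.2% ± 1.44 of the female and 3.15% ± 0.635 of the male counts. The 8089 tested sites without a call held 26.8% ± 0.854 and 10.8% ± 1.92 of female and male counts. Since the same libraries made the classes, these shares are descriptions.

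Differences were large in both directions. The median size was 3.83 on the log2 scale for male-higher and 3.07 for female-higher sites, and only 45 and 39 of the calls were under 2-fold. Among male-higher calls 46.2% were over 16-fold, as were 32.9% among female-higher calls. Beyond 64-fold the order turned, with 475 male-higher and 683 female-higher sites, and beyond 256-fold there were 121 and 364. All 6 males lay above all 6 females at 2877 tested sites (17.5%), and all 6 females above all 6 males at 3105 (18.9%). Among called sites the groups were apart at 2844 male-higher sites (67.0%) and at 3019 female-higher sites (73.7%).

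The balance of direction varied with level, but not steadily. Below a mean of 5 CPM over the 12 animals, males were higher at 172 and females at 470 of 2450 tested sites. The filter acted on library totals, before TMM scaling. A site that passed it through females can therefore lie lower on the TMM scale than one that passed through males. Whether this made the lowest class lean to female-higher sites was not tested. From 5 to 20 CPM, the class with the most sites, the calls were 1922 and 1615 of 7838. From 20 to 100 CPM females led again, with calls of 1492 and 1650 of 4890. From 100 to 1000 CPM they were 547 and 353 of 1129. Above 1000 CPM, males were higher at 113 sites and females at 6, so that 97.5% of these 122 sites were called and 95% of the calls were male. The mean over all animals leans to sites with extreme male levels, and this count shares its libraries with the rank comparison above.

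**Figure D4:**
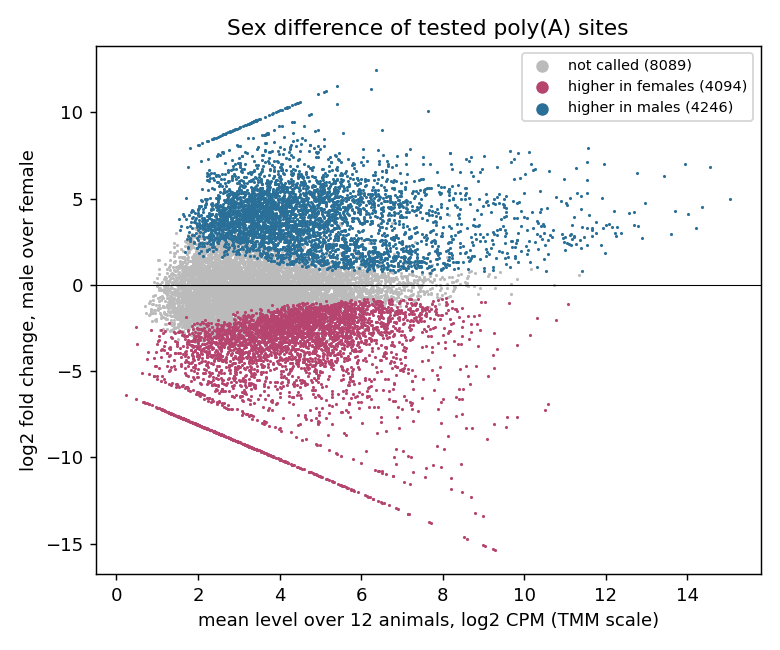
Log2 fold change (male over female) against mean level over the 12 animals (log2 CPM on the TMM scale) for the 16429 tested sites, 1 point per site, coloured by call. Male-higher sites (4246) reach the highest levels; the straight lines of points at the upper and lower edge are sites with no or few counts in 1 sex, whose fitted fold change depends on the prior count.

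The largest changes at high level were between presence and no count. The minus-strand site 77286553 of chromosome 2 held 1001, 1170 and 1719 CPM in females and had no count in males. It was at least 5685-fold higher in females, when 3 counts over the 6 males are taken as the limit (edgeR adjusted p = 3.73e-08). Its females varied little, with an SD of 265 around a mean of 1238 CPM.

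Similar patterns were found at 503681 of chromosome 8, minus strand, with 854, 1029 and 1406 CPM in females (at least 5180-fold), and at 112753832 of chromosome 7, plus strand, with 722, 867 and 1441 CPM (at least 4635-fold). The unplaced plus-strand site at 328257 held 440 CPM in female 6 and 804 to 915 in the other females (at least 3491-fold). All 6 males had 0 counts at each of these sites. The fifth, at 119177743 of chromosome 3, plus strand, was of another kind: female 4 held 6911 CPM and the other females 30.2 to 104, so the female mean of 1195 CPM became 52.4 without female 4.

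Among male-higher sites, the largest changes were more uneven. At 14383936 of chromosome 8, plus strand, no female had a count and males held 21.1, 85.1 and 633 CPM, with male 2 the highest (at least 1674-fold, edgeR adjusted p = 5.06e-05). Without male 2 the bound was at least 949-fold. The minus-strand site 144522677 of chromosome 5 held 43.1, 104 and 454 CPM in males. Female 4 had the only female count there, 1 count at 0.287 CPM. At 118584652 of chromosome 5, plus strand, males held 2073, 3129 and 16454 CPM and females 0, 25.9 and 41.4 (7.94 ± 1.08, edgeR adjusted p = 3.78e-05; 7.25 without male 1). Male 1 was the highest male there and also at the remaining 2 sites of this group, with 1961 CPM at 45662 of an unplaced minus strand and 853 CPM at 32235514 of chromosome 7, plus strand.

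The sites that differed by sex also differed in features that the test did not use. Male-higher sites were narrower and more often alone: their median width was 113 bases, against 234 for female-higher and 154 for all tested sites, and 54.7% lay in runs of 2 or more sites, against 79.0% and 71.1%. A run holds consecutive same-strand sites no more than 2000 bases apart, so its sites need not belong to 1 gene, and a long gene can be cut into several runs.

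Weighted by counts the picture was partly different. The share of counts in runs of 2 or more sites was 76.0% ± 1.17 in females and 67.9% ± 3.37 in males (n = 6 each, exact permutation p = 0.00216, adjusted over 7 measures 0.00303), with the groups apart. The width at the median count was 300 ± 6.96 bases in females and 386 ± 32.6 in males, with the same exact permutation p, but this order rested on the 10 highest sites: without them the difference was -24.0 bases (exact permutation p = 0.134). The share on the plus strand was 51.8% ± 0.488 in females and 58.1% ± 1.84 in males, a difference of 6.34 points (exact permutation p = 0.00216) that fell to 2.08 points without the same 10 sites. Without female 6 and male 3 the differences were -8.16 points for runs, 95.6 bases for width and 6.92 points for the plus strand.

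Unlisted counts gave a readout outside the 12 libraries. They add up to 63368185, or 58.2% of the deposited totals, and the sources used here do not say which libraries they come from. At male-higher sites the median was 4.27 unlisted counts per 1000000, at female-higher sites 18.5, and at all tested sites 9.47. No unlisted count was found at 333 male-higher sites (7.84%), at 31 female-higher sites (0.757%) and at 473 tested sites in all (2.88%). Ranked over the 16429 tested sites, levels had a Spearman's rho with unlisted counts of 0.529 to 0.649 in females and 0.139 to 0.262 in males, which is a description across sites.

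Yet the sites highest in unlisted counts took a larger share of male counts. The 1000 such sites held 57.3% ± 4.45 of male counts (50.4 to 63.0) and 33.5% ± 0.926 of female counts (32.3 to 34.6), with the groups apart (n = 6 each, exact permutation p = 0.00216, adjusted over 7 measures 0.00303). Without female 6 and male 3 the difference was 23.1 points (exact permutation p = 0.00794). The full difference of 23.8 points was 13.7 points without the 10 sites of highest mean level, all of which are among the 1000 (exact permutation p = 0.00216; chosen after seeing the data). With 500 sites the difference was 26.1 points, and with 5000 sites it was 9.44 points. Male counts lay on few sites, and how much of the difference follows from that was not tested. By number of sites the direction was the other way: of the 935 tested, males were higher at 285 (30.5%) and females at 374 (40.0%), against 25.8% and 24.9% of all tested sites. Their median log2 fold change was -0.71, against -0.29 over all tested sites.

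The 5 sites with most unlisted counts differed in level. The mitochondrial cluster (3529121 unlisted counts) had rank 1 in females and rank 4 in males. Position 28230407 of chromosome 10, plus strand (526447 unlisted counts), had rank 3 in females and rank 145 in males. The site with the most unlisted counts, 4089099, was low in the 12 libraries. It lies on the minus strand of an unplaced scaffold at 89246 and held 14.3, 37.2 and 172 CPM in females and 79.3, 164 and 692 in males (1.93 ± 0.64, edgeR adjusted p = 0.0194). The groups overlapped, and without male 2 the fold change was 1.09 (edgeR adjusted p = 0.114). A plus-strand site of chromosome 5 at 110079082, with 2518703 unlisted counts, was highest in female 4 at 727 CPM, against 15.9 to 98.2 in the other females and 0 to 35.9 in males (-3.49 ± 1.18, edgeR adjusted p = 0.0222). Without female 4 its fold change was -1.94 (edgeR adjusted p = 0.129). The next, on chromosome 1 at 461512 of the minus strand, held 1.19, 7.04 and 66.5 CPM in females and 4.52, 132 and 272 in males, and did not pass the test (2.44 ± 1.06, edgeR adjusted p = 0.0666). Without female 6 it passed, at 3.10 (edgeR adjusted p = 0.0321), as it did with DESeq2, no filter, the replicate block or male 1 left out (adjusted p = 0.0189 to 0.0498).

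**Figure D5:**
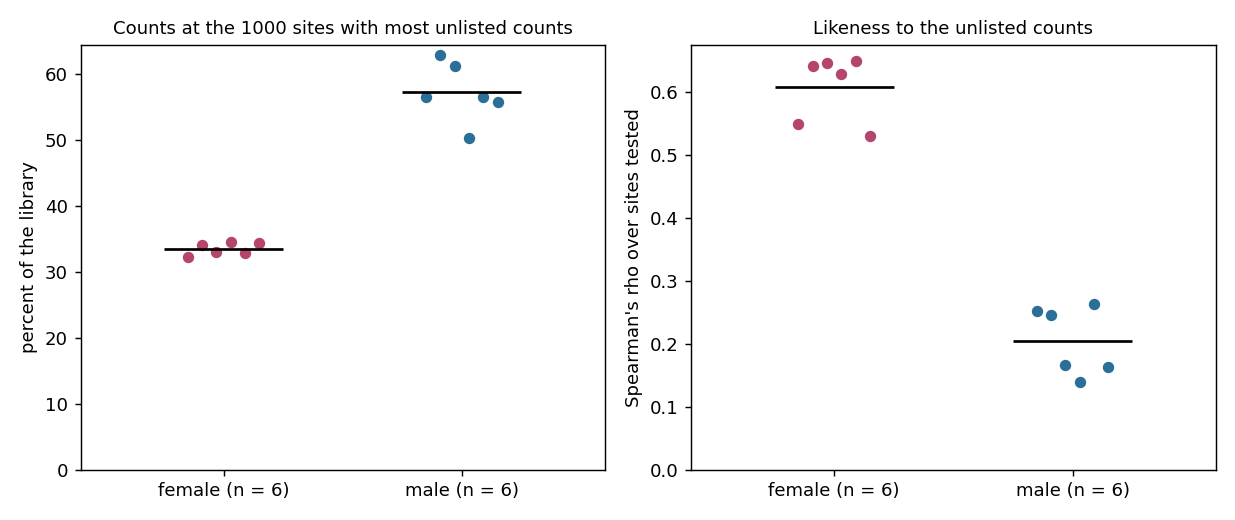
Left, percent of each animal's counts at the 1000 sites with most unlisted counts; right, Spearman's rho between an animal's levels and the unlisted counts over the 16429 tested sites; 1 point per animal, with a bar at the mean of each sex. Males lie higher on the left (50.4 to 63.0% against 32.3 to 34.6%) and lower on the right (0.139 to 0.262 against 0.529 to 0.649).

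The last question was whether the sexes used different sites of the same run. In most runs they did not differ detectably. Of 2491 runs with 2 or more tested sites (5791 sites), 383 passed the F test of diffSpliceDGE at an adjusted p of 0.05 (15.4%). Without female 6 and male 3, where the filter kept 17100 sites rather than 16429, 522 runs passed. The count of 383 depends on how runs are drawn, with 116 of 1618 runs at a largest gap of 500 bases and 577 of 2831 at 5000 bases. In 214 of the called runs the same site led in both sexes.

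The leading site by mean level differed between the sexes in 630 runs (25.3%), 169 of which were called. In 432 of the 630 the male leading site was the more distal, and in 198 the female one was. The median distance between the leading sites was 1186 bases. A change of the leading site that held in every animal was found in 43 runs, of which 36 had the male site distal. Called sites in opposite directions were found in 47 runs (1.89%), in 36 of which the male-higher site was distal. The asymmetry was not tested, and a distal site may belong to another gene.

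The 5 most opposed pairs varied in how far the counts moved from one site to the other. On chromosome 7, minus strand, the proximal site 1080100 and the distal site 1076338 lie 3762 bases apart. The proximal site took 95.7 to 100% of the pair's counts in males and 0 to 8.57% in females (run adjusted p = 9.17e-05, edgeR diffSpliceDGE). Both are low, at 10.4 ± 3.56 CPM in males for the first and 8.21 ± 2.71 CPM in females for the second.

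Another pair, on chromosome 2, minus strand, had more counts. The proximal site 155160105 held 12.1, 23.4 and 69.3 CPM in males and 0, 0.941 and 12.1 in females, and the distal site 155158020 held 0.654, 8.69 and 26.4 CPM in males and 41.6, 218 and 369 in females. The proximal share was 73.6% ± 17.7 in males (49.4 to 99.1%) and 2.01% ± 4.17 in females (0 to 10.5%), with no overlap (run adjusted p = 0.000151, edgeR diffSpliceDGE).

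On chromosome 8, plus strand, the proximal site 5187907 took 68.5% ± 9.61 of the pair's counts in males and 0.831% ± 2.00 in females, against the distal site 5190180 that lies 2273 bases away (run adjusted p = 0.000491, edgeR diffSpliceDGE). The distal site was uneven in females, with 412 CPM in female 4 and 14.5 to 138 in the others. The other 2 pairs, both on chromosome 3, had the male-higher site distal, at 51831256 (minus strand) and 67253089 (plus strand). At the first, males placed all counts of the pair on the distal site and females 31.5% ± 22.6. At the second, male 3 had no count at either site, and the distal share was 89.4% ± 16.3 in the other 5 males against 4.04% ± 4.30 in females.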

How the data were processed

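The authors deposited whole-number counts per poly(A) site cluster and library, per the file headers and the values, with a total for each site (25 at the least). The sources used here do not give the aligner, the clustering of reads, the genome build or other filters. Groups were taken from the labels, 1 library per animal, and 0 columns of other samples were found. The deposited table of start sites was not used here. Positions were shifted to count from 1. The members, lists and tests were chosen with earlier results of these data known.

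Counts were tested between 6 males and 6 females with edgeR 4.0.16 in R 4.3.3 (TMM scaling, filterByExpr by sex, quasi-likelihood F test, Benjamini-Hochberg adjustment at 0.05), and site use within runs with its diffSpliceDGE. Standard errors of log2 fold changes were derived from F as the absolute change over the root of F. A sex with 0 counts gets a bound from 3 counts over its 6 animals. For 7 measures with 1 value per animal, exact permutation tests (two-sided, every arrangement of 6 against 6) were run and adjusted together. P-values set the difference between the sexes against the spread between animals. PCR reads without molecular identifiers are not independent molecules, so floors cover counting error only. Alternatives included DESeq2 1.42.0, no filter, library totals alone, RLE size factors, each animal left out and a replicate block. The edgeR test of sites and the permutation test were tried on simulated data. The diffSpliceDGE and DESeq2 fits were not. In the edgeR trial, simulated counts varied less between animals than the real ones, and few sites changed. That trial does not show how the test behaves with as many changed sites as here. Python 3.11.15 was used with scipy 1.17.1, numpy 2.4.6, pandas 2.3.3 and matplotlib 3.10.9.

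Sites named in the text are the 10 highest by mean CPM in each sex, the 5 called sites in each direction with the largest fold change at a mean of 100 CPM or more in the higher sex, the 5 with the largest SD between animals of each sex at 50 CPM or more, the 3 uncalled sites at 100 CPM or more with the smallest SD over all animals, the 5 runs with the largest opposed calls, and the 5 sites with most unlisted counts. The gene table at hand is of an assembly (UCB_Xtro_10.0) that the site table does not name, so it was not used. Of the named sites, 47 of 53 passed the filter and were tested.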

Additional observations from a re-analysis of the deposited data

Results flagged for a closer look

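Of 120 groups of 6 animals examined at named sites and for the measures per animal, 34 had 1 animal far from the other 5. Chance flags about 1 in 20 groups of normally distributed values. That rate does not hold for skewed levels such as CPM, and a group with counts in 1 animal alone is always flagged. Sites were also partly chosen for uneven levels or large change, so more than 1 in 20 was built in. No measure per animal was among them. All levels that follow are in CPM.

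Female 4 was the high animal in 12 of these groups. It held 6911 at chromosome 3 site 119177743, 898 at chromosome 7 site 8097574, 727 at chromosome 5 site 110079082, 412 at chromosome 8 site 5190180, 379 at chromosome 7 site 8221 and 363 at chromosome 9 site 9527325. At lower levels it held 172 at the unplaced site 89246, 17.2 at chromosome 3 site 12435738, 12.9 and 10.9 at chromosome 7 sites 9088697 and 9057459, 2.3 at chromosome 3 site 67253089 and 0.287 at chromosome 5 site 144522677. The last of these levels was 1 count. Across all sites that averaged at least 10 CPM in females, female 4 stood apart as the high animal at 84 of 8905, more than any other female.

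Other females were high with 6326 in female 3 at the mitochondrial site, 58.4 in female 3 at chromosome 8 site 54596729, 12.1 in female 3 at chromosome 2 site 155160105, 2.32 in female 3 at chromosome 8 site 5187907, 47.6 in female 6 at chromosome 3 site 67246388, 2.06 in female 2 at the unplaced site 45662 and 0.510 in female 1 at chromosome 7 site 1080100. Female 6 was low at the unplaced site 328257, with 440.2.

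Among males, male 1 was high with 5230 at chromosome 3 site 12435738, 1961 at the unplaced site 45662, 853 at chromosome 7 site 32235514 and 704 at the unplaced site 18351. Male 2 was high with 71438 at the unplaced site 5026, 692 at the unplaced site 89246, 633 at chromosome 8 site 14383936 and 0.654 at chromosome 7 site 1076338. Male 3 was high with 80071 at chromosome 9 site 36978837 and with 4688 and 3572 at chromosome 7 sites 9057459 and 9088697, and low with 93.2 at chromosome 7 site 17393227. Male 4 held 454 at chromosome 5 site 144522677, and male 5 held 10.5 at chromosome 7 site 8221. At sites 9057459, 9088697, 12435738, 144522677, 8221 and 89246 a male and female 4 were both high in their own sex. At 144522677 this was 1 count in female 4. Few counts also set the level of male 2 at 1076338 (1 count) and of female 1 at 1080100 (3 counts). What sets these animals apart was not tested.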

How the results depend on the processing

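Of 16429 tested sites, the number that differed by sex was 6507 with a 2-fold minimum, 8418 with RLE size factors and 9521 with DESeq2. With 1 animal left out more sites were tested, and 8594 to 9877 differed (47.0 to 52.9% of those tested). With no filter it was 30526 of 98277. The same numbers in the labels of females and males did not pair the animals (correlations of deviations -0.139 to 0.0890, with 1 of 12 animals closest to its own number). With the replicate block, 7766 sites and 291 runs passed. Runs called were 116 (7.17% of those tested) and 577 (20.4%) at gaps of 500 and 5000 bases. They were 153 of 973 (15.7%) with sites of 10 CPM or more. With 1 animal left out they were 332 to 512 (11.6 to 17.2% of those tested). The number of sites at equal depth turned to a male excess of 872.8 (exact permutation p = 0.537) without sites whose unlisted counts exceed the listed, and lay between -4103 and -677.2 with 1 animal left out. The difference in spread was 0.0906 at 50 CPM and 0.118 to 0.194 with 1 animal left out, and the difference in width was -24.0 without the 10 highest sites. Of the 47 named sites that were tested, 35 kept call and direction under every alternative run. Signs reversed at chromosome 1 site 81001003 (-0.62 on library totals, -0.16 with no filter), chromosome 7 site 17393227 (-0.99 and -0.48), chromosome 5 site 108059170 (-1.14 and -0.62, and -0.11 to 0.12 with 1 animal left out) and chromosome 7 site 8097574 (0.84 with the replicate block, -4.52 to 1.04 with 1 animal left out); causes were not tested beyond female 4 at the last. Depth limits what can be read from a site with no count.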
